A study of Brassica napus with 6 samples.

Results

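The genes described here carry sulfate into plant cells and through the first steps of its assimilation. They are the Brassica napus genes whose best Arabidopsis match, as the deposited table gives it, is SULTR1;2 (AT1G78000), SULTR2;1 (AT5G10180), ATPS1 (AT3G22890), APR1 (AT4G04610), APR2 (AT1G62180), APR3 (AT4G21990), APK1 (AT2G14750), APK2 (AT4G39940) or SDI1 (AT5G48850). There were 42 such genes, called copies below, with 62 transcript models, among 145279 genes in the table. By their identifiers 20 copies lie on A chromosomes and 17 on C chromosomes, while 5 name neither.

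Poly-A RNA was sequenced from single leaves, the very young leaf number 3, of Brassica napus, whose genome joins an A and a C subgenome; the plants came from a pair of closely related doubled haploid lines. The parents were Quantum/LG3260 and CN113136; DH6-47 is hirsute, with about 600 trichomes per leaf, and DH6-110 is glabrous, and both were grown untreated under 16 h of light. Each group is a single line, so trichome formation and any other difference between the lines cannot be told apart. The labels list 3 leaves per line; replicates 1 and 3 of each were measured in the table, so 2 leaves stand against 2, and the replicate 2 leaves were not analysed here.

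Levels are in TPM, which scales values for transcript length and for the total of each leaf, so that levels can be compared between genes. The sequencing depth behind them is unknown. Across genes the log2 values correlated at 0.948 between the hairy leaves and 0.909 between the glabrous leaves; genes are not independent replicates. Among leaf markers, the summed level of photosynthesis genes was 3373 and 4025 TPM in the hairy leaves and 5252 and 7265 TPM in the glabrous ones, although RBCS1A, the Rubisco small subunit used as a marker, was listed at 0 in 3 of the 4 leaves. Of 5 root markers, 4 stayed under 1 TPM in every leaf, and CASP1, PYK10 and XTH14 were listed at 0 throughout. The exception, NRT2.1, read 0.77 and 0.97 TPM in hairy 1 and 3, 0.50 TPM in glabrous 1 and 6.20 TPM in glabrous 3. In whole leaves, fewer cells of a type and less RNA per cell cannot be told apart.

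Sulfate enters cells through SULTR transporters and is activated by ATP sulfurylase (ATPS) to adenosine 5′-phosphosulfate (APS). APS is then split between a pair of fates. APS reductase (APR) in plastids turns it into sulfite on the way to cysteine, and APS kinase (APK) turns it into PAPS, the sulfate donor for sulfated compounds. In Brassicaceae a large sink for PAPS is the making of glucosinolates, and SDI1, which sulfur deficiency induces, represses glucosinolate synthesis in Arabidopsis.

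None of the 8 genes that could be tested, of 9, passed the test between the lines, and the glabrous leaves differed widely from each other. Summed over copies, ATPS1, APR2, APK1, APK2 and SULTR2;1 were highest in glabrous 3. The APR1, APR3 and SDI1 sums read higher in both hairy leaves than in both glabrous leaves, and the APR2 sum read lower. Among all sums tested, 17% lay above in this way and 12.4% below. A copy or sum was called when its adjusted p was under 0.05 in limma, fitted to log2(TPM + 1) over every gene that reached 1 TPM in 2 or more leaves. Of the 42 copies, 24 passed that filter, with 0 called as higher and 0 as lower in the hairy line, against 5.24% and 4.48% of all 44247 copies tested. At an unadjusted p under 0.05 there were 3 copies up and 2 down, where all genes gave 9.88% and 7.5%. Of the 8 sums tested, 0 were called either way and 0 had an unadjusted p under 0.05, against 1.8% of 15739 sums called higher and 0.241% lower, and 6.01% and 2.17% at an unadjusted p under 0.05. Among the 24 copies, 7 lay above in both hairy leaves and 4 below without overlap, against 21.4% and 17.4% of all copies tested.

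**Figure D1:**
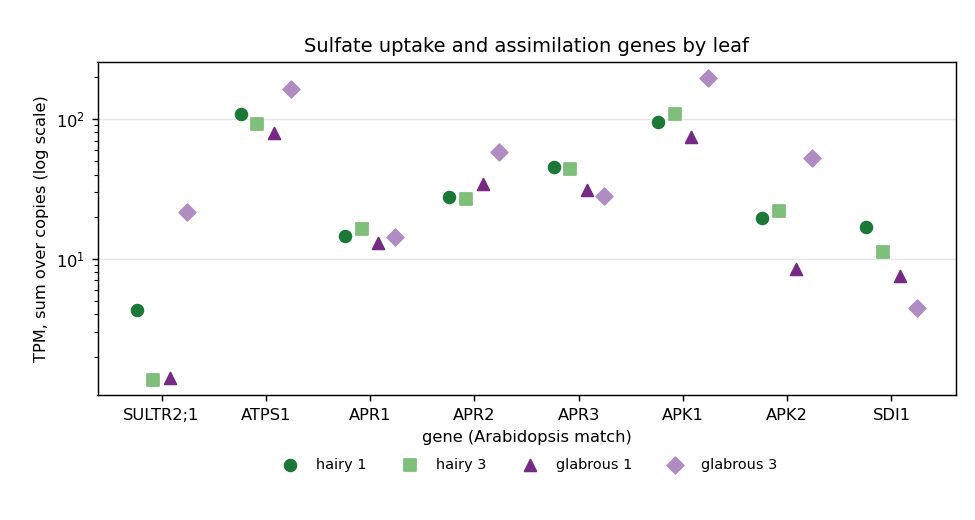
TPM summed over the copies of each gene (log scale) in the 4 leaves, 1 point per leaf; SULTR1;2 is left out because it stayed under 1 TPM. Glabrous 3 is the highest leaf for SULTR2;1, ATPS1, APR2, APK1 and APK2. The hairy leaves lie above the glabrous leaves for APR1, APR3 and SDI1 and below them for APR2, as for 17% and 12.4% of all sums tested.

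The transporters were the least abundant of these genes in 3 of the 4 leaves. SULTR1;2, the high-affinity carrier that takes sulfate into Arabidopsis roots, had 4 copies, of which 2 were listed at 0 in all leaves and none reached 1 TPM, although a 0 in a table without counts may also be a failed estimate. Its sum read at most 0.14 TPM. SULTR2;1, a low-affinity carrier of vascular tissue in Arabidopsis, summed to 4.29 and 1.36 TPM in hairy 1 and 3 and to 1.41 and 21.4 TPM in glabrous 1 and 3. Glabrous 3 thus stood 15.2-fold over glabrous 1, and the groups overlapped.

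Most of SULTR2;1 came from a single copy. The A02 copy (BnaA02g003180.4DH) read 2.68 and 0.68 TPM in hairy 1 and 3 and 0.74 and 16.7 TPM in glabrous 1 and 3. The log2 difference, hairy minus glabrous, was -1.16 for this copy (95% interval -3.35 to 1.03, adjusted p = 0.77) and -1.06 for the sum (-2.90 to 0.78, adjusted p = 1.00). Without glabrous 1, which leaves glabrous 3 as the only glabrous leaf and assumes that it varies like the hairy ones, they were -2.83 (adjusted p = 0.0103) and -2.67 (adjusted p = 0.000877); without glabrous 3 they were 0.51 and 0.55 and not called. The other 5 copies reached 0.09 to 2.52 TPM at most and were not tested. The C02 copy (BnaC02g002220.4DH) read 0.76 and 0.12 TPM in the hairy leaves and was listed at 0 in both glabrous leaves, so the C chromosome share of the sum was 17.8% and 9.19% in the hairy leaves and 0 in the glabrous ones.

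The 6 vascular markers XCP1, XCP2, IRX3, VND7, SUC2 and APL, of which none was at 0, were also all highest in glabrous 3, as were 41.3% of all sums tested. Their summed level was 37.9 to 53.9 TPM in the hairy leaves, 51.3 TPM in glabrous 1 and 132 TPM in glabrous 3. None of the 6 sums was called, and their part in the SULTR2;1 levels was not tested.

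ATPS1, an ATP sulfurylase, was among the most abundant of these genes. It summed to 108 and 91.4 TPM in hairy 1 and 3 and to 79.6 and 163 TPM in glabrous 1 and 3. The hairy leaves lay inside the range of the glabrous leaves, and the log2 difference was -0.19 (95% interval -1.03 to 0.64, adjusted p = 1.00); it was 0.32 without glabrous 3 (adjusted p = 0.891).

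Between the glabrous leaves its A03 and C03 copies differed more than its A05 and C05 copies. The A03 copy (BnaA03g044140.4DH) read 14.7 and 9.36 TPM in the hairy leaves, 15.5 TPM in glabrous 1 and 54.5 TPM in glabrous 3. The C03 copy (BnaC03g059310.4DH) read 10.3 and 10.5 TPM in the hairy leaves, 9.42 TPM in glabrous 1 and 28.1 TPM in glabrous 3. Together they took 23.1% and 21.8% of ATPS1 in the hairy leaves, 31.3% in glabrous 1 and 50.8% in glabrous 3, a pairing made after these values were seen.

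The A05 copy (BnaA05g039480.4DH) read 42.3, 36.5, 27.1 and 48.1 TPM, the hairy leaves first and replicate 1 before replicate 3. The C05 copy (BnaC05g052280.4DH) read 40.8, 35.0, 27.6 and 31.9 TPM in the same order. Between the glabrous leaves the A05 and C05 copies differed by 1.78-fold and 1.16-fold, against 3.51-fold and 2.98-fold for the A03 and C03 copies. Of the 4, the A03 copy had the largest line difference (-1.25, 95% interval -2.41 to -0.08, unadjusted p = 0.0377, adjusted p = 0.235), which was called only without glabrous 1 (-2.12, adjusted p = 0.0122) and with a crossed pairing of the leaves, hairy 1 with glabrous 3, that was added after the data were seen (adjusted p = 0.0332). The C05 copy read higher in both hairy leaves, by 0.34 (adjusted p = 0.881).

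**Figure D2:**
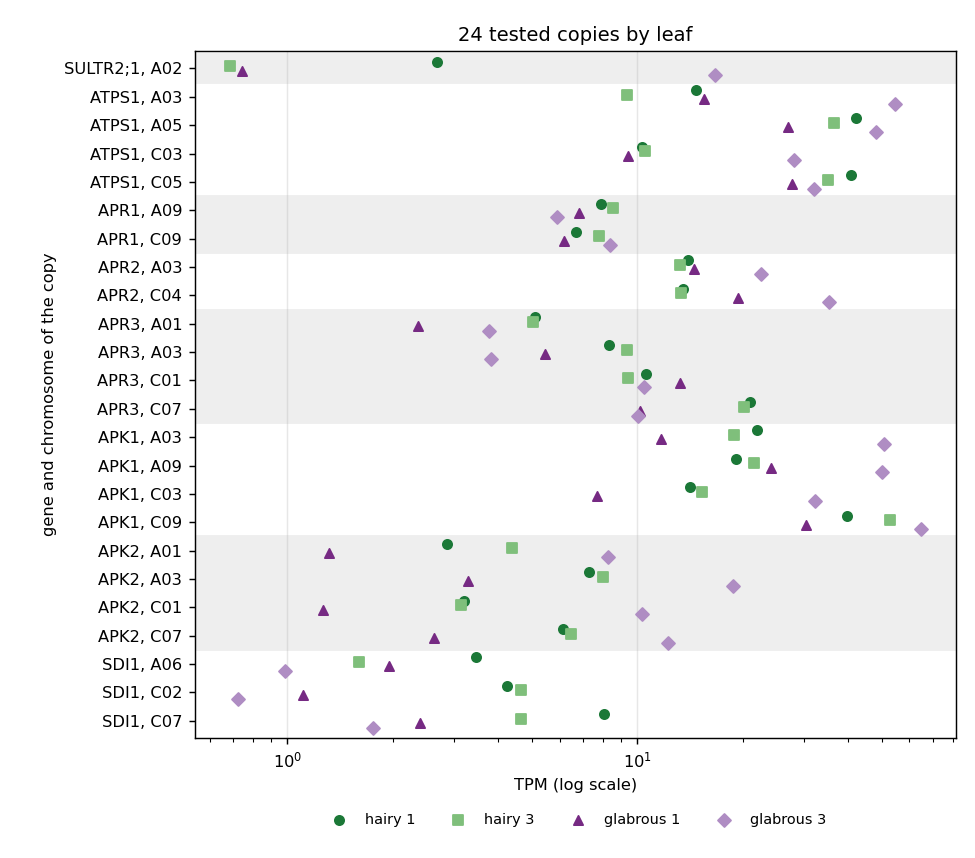
TPM (log scale) of the 24 tested copies in the 4 leaves, 1 point per leaf, grouped by gene with the chromosome taken from the identifier. Glabrous 3 is the highest leaf in all 8 tested APK copies, against 37.8% of all copies tested. The hairy points lie above the glabrous points in 3 of 4 tested APR3 copies and 2 of 3 tested SDI1 copies. Over the 24 copies 7 lie above and 4 below without overlap, against 21.4% and 17.4% of all copies tested.

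The 3 APS reductase genes behaved differently from each other. APR1 summed to 14.6 and 16.3 TPM in the hairy leaves and 13.0 and 14.3 TPM in the glabrous leaves. APR2, the main APS reductase of Arabidopsis leaves, summed to 27.5 and 26.6 TPM in the hairy leaves, 34.0 TPM in glabrous 1 and 57.8 TPM in glabrous 3. APR3 summed to 45.0 and 44.0 TPM in the hairy leaves, 31.2 TPM in glabrous 1 and 28.1 TPM in glabrous 3.

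In none of these genes did the leaf groups overlap: hairy leaves read higher for APR1 and APR3 and lower for APR2, where 17% of all sums tested lay higher without overlap and 12.4% lower. The log2 differences were 0.17 for APR1 (95% interval -0.85 to 1.19), -0.69 for APR2 (-1.60 to 0.21) and 0.57 for APR3 (-0.28 to 1.42). No adjusted p was under 0.931. The interval of APR1 is wide enough to hold a sizeable change in either direction.

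The make-up of the step differed between leaves more than its total. APR1 to APR3 summed to 87.1 and 86.9 TPM in the hairy leaves and 78.2 and 100.3 TPM in the glabrous leaves. APR3 gave 51.7% and 50.6% of this total in the hairy leaves but 39.9% and 28.1% in glabrous 1 and 3. APR2 gave 31.5% and 30.6% in the hairy leaves against 43.4% and 57.7%. These totals over several genes were not tested.

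Copy by copy, the C07 copy of APR3 (BnaC07g069490.4DH) read 21.0 and 20.1 TPM in the hairy and 10.2 and 10.1 TPM in the glabrous leaves, without overlap. Its log2 difference was 0.96 (95% interval 0.10 to 1.81, unadjusted p = 0.0313, adjusted p = 0.205), close to 2-fold in both pairs of leaves but not called. With the crossed pairing, which was added after the data were seen and which the labels do not give, it was called (adjusted p = 0.0351). When leaves were simulated for the 44247 copies tested, 0 of 67 copies changed by 1 on the log2 scale were called. Fewer copies were changed there than were called in the data, so this rate need not hold for the data.

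The A03 copy of APR3 (BnaA03g054550.4DH) read 8.31 and 9.36 TPM in the hairy and 5.44 and 3.81 TPM in the glabrous leaves (0.82, adjusted p = 0.466). The C01 copy (BnaC01g017910.4DH) went slightly the other way, with 10.6 and 9.44 against 13.3 and 10.5 TPM and overlapping groups (-0.22, adjusted p = 1.00). A further copy on A01 read 5.11 and 5.02 against 2.37 and 3.78 TPM (BnaA01g014140.4DH, below the level set for naming), and a C03 copy was listed at 0 in all leaves. Its C copies carried 67.3% to 75.0% of APR3 in the 4 leaves.

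Both APR2 copies read lower in the hairy leaves without overlap. The A03 copy (BnaA03g076940.4DH) read 13.96 and 13.2 TPM in the hairy and 14.5 and 22.6 TPM in the glabrous leaves (-0.39, adjusted p = 0.876). The C04 copy (BnaC04g038370.4DH) read 13.5 and 13.4 TPM in the hairy and 19.4 and 35.3 TPM in the glabrous leaves (-0.91, 95% interval -1.81 to -0.02, unadjusted p = 0.0459, adjusted p = 0.271). In the hairy leaves the copies were nearly level, with 49.2% and 50.3% from C04, while the C04 share was 57.2% and 60.98% in the glabrous leaves.

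APR1 came from a pair of copies, as 3 others were listed at 0 in all leaves. The A09 copy (BnaA09g027250.4DH) read 7.89 and 8.53 TPM in the hairy and 6.80 and 5.92 TPM in the glabrous leaves (0.33, adjusted p = 0.957). The C09 copy (BnaC09g039960.4DH) read 6.70 and 7.80 against 6.19 and 8.38 TPM, a log2 difference of 0.00 (95% interval -0.99 to 1.00). Apart from these small shifts APR1 was the steadiest of the 8 measurable genes from leaf to leaf, with 13.0 to 16.3 TPM.

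**Figure D3:**
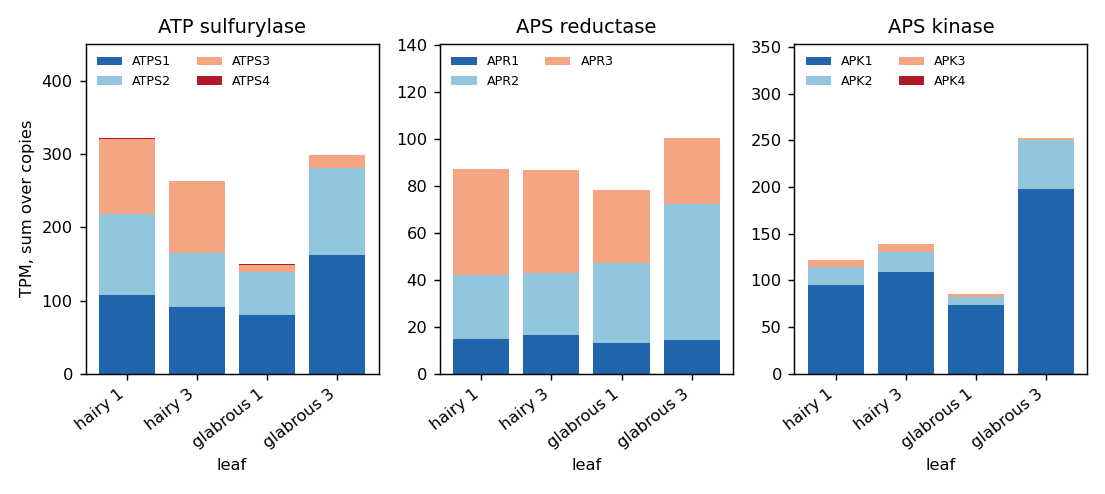
TPM summed over copies in each leaf for the genes of 3 enzyme steps, stacked by gene. ATP sulfurylase holds about 100 TPM of ATPS3 in each hairy leaf and 10.3 and 17.8 TPM in the glabrous leaves, APS reductase stays between 78.2 and 100.3 TPM, and APS kinase peaks in glabrous 3.

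The APS kinases showed the widest gap between the glabrous leaves after SULTR2;1. APK1, with APK2 a source of PAPS for glucosinolates in Arabidopsis, summed to 95.1 and 108 TPM in the hairy leaves, 73.8 TPM in glabrous 1 and 197 TPM in glabrous 3. APK2 summed to 19.7 and 22.0 TPM in the hairy leaves, 8.49 TPM in glabrous 1 and 52.9 TPM in glabrous 3. The hairy leaves lay between the glabrous leaves in both genes, and the line differences were -0.25 for APK1 (95% interval -1.16 to 0.66) and -0.05 for APK2 (-1.42 to 1.32), each with an adjusted p of 1.00.

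The sign of these differences rested on a single leaf. Without glabrous 3 they were 0.46 and 1.201, and without glabrous 1 they were -0.95 and -1.31, none of them called. APK2 changed sign also without hairy 1 (0.02).

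All 8 tested APK copies were highest in glabrous 3, and 7 of them were lowest in glabrous 1. APK1 copies read 11.7 and 50.7 TPM in glabrous 1 and 3 for A03 (BnaA03g046380.4DH), 7.69 and 32.2 for C03 (BnaC03g063510.4DH) and 30.3 and 64.7 for C09 (BnaC09g013650.4DH). Their hairy leaves read 22.0 and 18.9 TPM, 14.2 and 15.3 TPM, and 39.7 and 52.7 TPM, inside the glabrous range for each. The A09 copy (BnaA09g010900.4DH) was the exception, at 19.2 and 21.6 TPM in the hairy leaves and 24.04 and 49.9 TPM in the glabrous leaves, without overlap (-0.74, 95% interval -1.64 to 0.16, adjusted p = 0.452).

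For APK2 the gap between the glabrous leaves was wider than for APK1 in every copy tested, 4.65-fold to 8.19-fold against 2.08-fold to 4.33-fold. The A03 copy (BnaA03g068990.4DH) read 7.27 and 7.99 TPM in the hairy leaves, 3.29 TPM in glabrous 1 and 18.8 TPM in glabrous 3. The C07 copy (BnaC07g081460.4DH) read 6.13 and 6.48 TPM in the hairy leaves, 2.62 TPM in glabrous 1 and 12.2 TPM in glabrous 3. The A01 and C01 copies ran from 1.32 to 8.23 TPM and from 1.26 to 10.3 TPM, each lowest in glabrous 1 and highest in glabrous 3. Of the remaining pair, the A08 copy (BnaA08g031000.4DH) read 3.40 TPM in glabrous 3 and at most 0.23 TPM elsewhere, and a C03 copy was listed at 0.

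A ratio of reductase to kinase transcripts carries this gap in its denominator, so it is not a separate result. The ratio of APR1 to APR3 over APK1 and APK2, in summed TPM, was 0.76 and 0.67 in the hairy leaves, 0.95 in glabrous 1 and 0.40 in glabrous 3. The glabrous leaves thus lay on either side of the hairy ones. The ratio was not tested between the lines.

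SDI1, a repressor of glucosinolate synthesis, had the largest positive line difference of the 8 sums tested. It summed to 16.8 and 11.2 TPM in hairy 1 and 3 and to 7.49 and 4.46 TPM in glabrous 1 and 3. Both hairy leaves lay above both glabrous leaves, by 1.11 on the log2 scale (95% interval -0.02 to 2.25, unadjusted p = 0.0541, adjusted p = 0.639). Unlike the kinases, it was lower in glabrous 3 than in glabrous 1.

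Among its copies, C02 (BnaC02g074900.4DH) had the lowest adjusted p of all 24 tested, a choice made after the values were seen. It read 4.24 and 4.66 TPM in the hairy and 1.11 and 0.73 TPM in the glabrous leaves (1.51, SE 0.45, 95% interval 0.52 to 2.50, adjusted p = 0.059). It was called with TMM scaling (1.48, adjusted p = 0.039) and with the crossed pairing (adjusted p = 0.0145), and in no other setting tried. The crossed pairing was added after the data were seen, so the call it gave is not separate support.

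The C07 copy (BnaC07g055750.4DH) read 8.04 and 4.67 TPM in the hairy and 2.39 and 1.76 TPM in the glabrous leaves (1.23, adjusted p = 0.19). With the crossed pairing, added after the data were seen, its adjusted p was 0.0484. The A06 copy (BnaA06g070180.4DH) overlapped, at 3.45 and 1.60 against 1.96 and 0.99 TPM. Of the other 3 copies, which were not tested, A09 reached 0.43 TPM and C09 was listed at 0. The A02 copy read lower in both hairy leaves, at 0.996 and 0.194 against 1.60 and 0.997 TPM. SDI1 therefore drew 73.0% and 83.4% of its sum from C copies in the hairy leaves and 46.7% and 55.6% in the glabrous leaves.

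The difference between the glabrous leaves was set beside the same over all genes. Glabrous 3 exceeded glabrous 1 in 17 of the 24 tested copies, near the 70.9% of all tested genes. It was the highest of the 4 leaves in 15, or 62.5%, against 37.8% of all tested genes, and glabrous 1 was the lowest in 12, against 40.5%. The median gap on the log2 scale, glabrous 3 minus glabrous 1, was 0.82 over the 24 copies and 0.39 over all tested genes. Between the hairy leaves, hairy 3 minus hairy 1, it was -0.02 and -0.27, and 11 copies were higher in hairy 3, against 30.1% of all. Of the 8 sums, 6 were higher in glabrous 3 than in glabrous 1 (75.3% of all sums), 5 were highest in glabrous 3 (41.3%), 4 were lowest in glabrous 1 (44.4%) and 3 were higher in hairy 3 than in hairy 1 (28%).

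The gap was not shared by all of the genes. All 15 tested copies of SULTR2;1, ATPS1, APR2, APK1 and APK2 read higher in glabrous 3 than in glabrous 1, by 1.16-fold to 22.6-fold. Of the 9 tested copies of APR1, APR3 and SDI1, 2 did. This grouping was made after the values were seen and carries no test. Between the hairy leaves the sums of ATPS1, APR1 to APR3, APK1 and APK2 differed by at most 1.18-fold, SDI1 by 1.503-fold and SULTR2;1 by 3.16-fold.

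**Figure D4:**
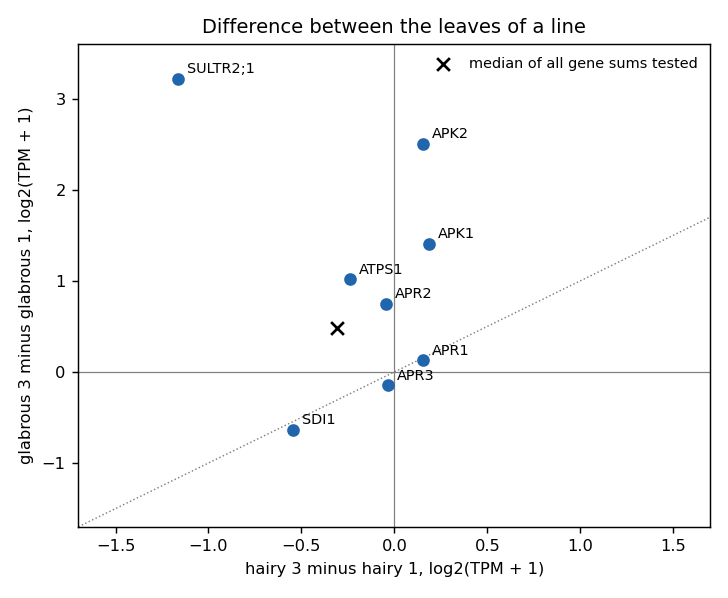
Difference between the leaves of a line on the log2(TPM + 1) scale for the 8 tested sums, hairy 3 minus hairy 1 on the horizontal and glabrous 3 minus glabrous 1 on the vertical axis; the dotted line marks equal differences. SULTR2;1 and APK2 lie far up, at 3.22 and 2.51, while SDI1, APR3 and APR1 lie near the dotted line, and the cross marks the median of all sums tested.

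Myrosinase genes, markers of the myrosin cells that hold the enzymes which split glucosinolates, moved the same way. The TGG1 and TGG2 sums came together to 661 and 616 TPM in the hairy leaves, 434 TPM in glabrous 1 and 3082 TPM in glabrous 3, and neither was at 0. The 3 glucosinolate sulfotransferases SOT16, SOT17 and SOT18, which use PAPS, were each lowest in glabrous 1 too, but only SOT18 was highest in glabrous 3. SOT16 and SOT17 read higher in both hairy leaves than in both glabrous leaves, at 715 and 567 against 398 and 530 TPM and at 90.5 and 69.5 against 11.8 and 43.9 TPM; neither sum was called (adjusted p = 1.00 and 0.127). Of the trichome markers GL1, GL2, GL3 and TTG2, summed to 22.6 to 28.5 TPM in the hairy and 11.5 to 15.2 TPM in the glabrous leaves, none was highest in glabrous 3. Of the stomatal markers FAMA, KAT1 and TMM, summed to 31.1 to 36.02 TPM in the hairy leaves, 46.8 TPM in glabrous 1 and 93.6 TPM in glabrous 3, FAMA and TMM were highest in glabrous 3. The part of these markers in the levels of the assimilation genes was not tested.

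Copies from the A and the C subgenome contributed about equally to most of the genes. The A share of the sum stayed between 50.1% and 63.1% for ATPS1, 41.4% and 54.1% for APR1, 39.0% and 50.8% for APR2, 37.3% and 50.9% for APK1, and 52.6% and 57.4% for APK2 over the 4 leaves. The A share ranged farther from balance for APR3, at 25.0% to 32.7%, SULTR2;1, at 52.6% to 89.8%, and SDI1, at 16.6% to 53.3%. Nearly identical copies can exchange reads in the counting, so the split between copies is less certain than the sum.

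In the authors' deposited table, which tests each transcript, 42 of the 62 transcript models of these genes carry a p-value. In the authors' deposited table none of the 42 had an adjusted p under 0.05, against 4.05% of all 79668 transcripts with a value (2% higher and 2.04% lower). At an unadjusted p under 0.05 in that table, 2 of the 42 lay up and 5 down. Of the 79668 transcripts, 5049 lay up and 4623 down in this way. The lowest adjusted p in the authors' deposited table, 0.0569, belonged to the A10 copy of SULTR2;1 (BnaA10g035570.4DH), at 0.04 and 0.03 TPM in the hairy and 0.39 and 2.52 TPM in the glabrous leaves.

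The wider sulfur pathway, 6 lists of other genes, did hold called copies. In the hairy line 10 of 106 tested copies were higher and 8 lower; 2 of 35 sums rose and none fell, with 8 higher and 1 lower at an unadjusted p under 0.05; the shares of all genes are those given above. The median log2 difference was 0.16 over these copies, -0.01 over the 24 copies described above and 0.03 over all tested genes. The lists were chosen with earlier results of these data known, and their counts carry no test.

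ATPS3 (AT4G14680), another ATP sulfurylase, summed to 102 and 99.4 TPM in the hairy leaves and 10.3 and 17.8 TPM in the glabrous leaves (2.80, SE 0.42, adjusted p = 0.00176). Both of its copies were called, C01 (BnaC01g033610.4DH) at 53.9 and 51.3 against 3.18 and 5.82 TPM (3.33, adjusted p = 0.000252) and A01 (BnaA01g024370.4DH) at 48.6 and 48.1 against 7.16 and 12.0 TPM (2.26, adjusted p = 0.00235). All 3 calls held in each of the 13 other settings tried. ATPS3 made up 31.8% and 37.6% of the summed ATPS1 to ATPS4 in the hairy leaves and 6.92% and 5.96% in the glabrous leaves, while ATPS1 made up 33.5% and 34.6% against 53.3% and 54.3%. In total the step read 322 and 264 TPM in the hairy leaves, 150 TPM in glabrous 1 and 299 TPM in glabrous 3, so the leaf groups overlapped.

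**Figure D5:**
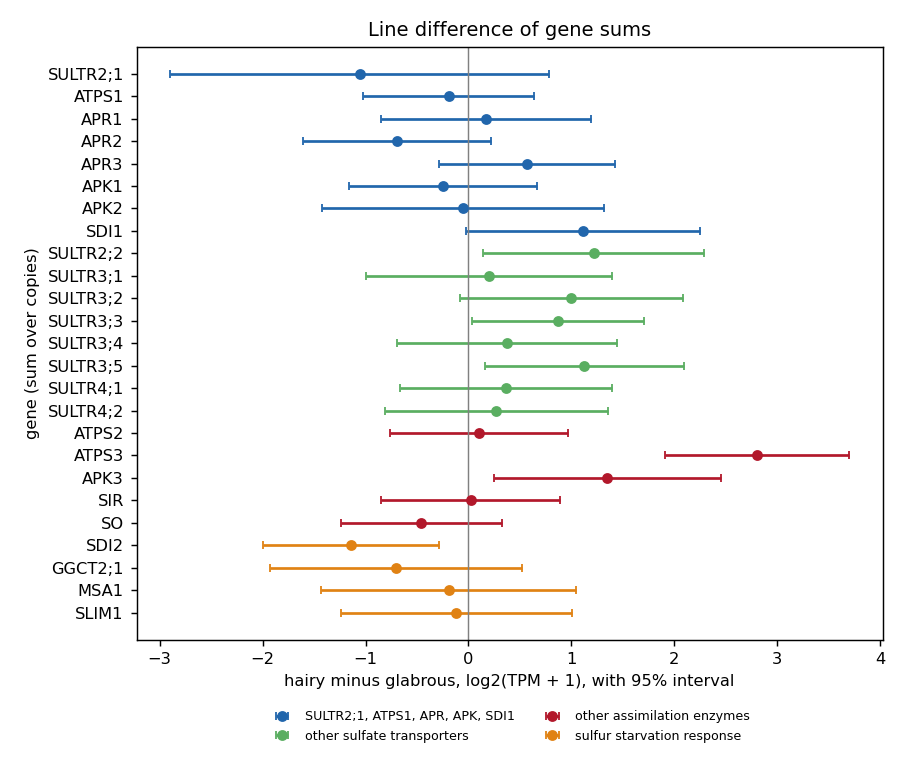
Log2 difference, hairy minus glabrous, with its 95% interval from limma for sums over copies of the 8 tested genes described here and of the tested sums of 3 other sulfur lists. All intervals of the 8 genes include 0, and ATPS3 at 2.80 is the only sum shown that was called.

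Other steps showed calls for single copies whose sums were not called. Of 20 tested copies of other assimilation enzymes, 4 were called higher and 2 called lower, among them the C05 copy of the APS kinase APK3 (BnaC05g082180.4DH), at 4.48 and 4.52 TPM in the hairy leaves and listed at 0 in the glabrous ones (adjusted p = 0.00187; sum 1.35, adjusted p = 0.365). Sulfite reductase (SIR), which follows APR, was named after its values were seen. Its A01 copy (BnaA01g061320.4DH) was higher at 40.0 and 30.0 against 14.96 and 10.5 TPM, its C03 copy (BnaC03g048270.4DH) lower at 11.9 and 7.78 against 29.2 and 83.5 TPM, and its sum differed by 0.02. The A01 call was lost in 8 of 13 other settings, among them without hairy 1 (adjusted p = 0.42), hairy 3 (0.186) or glabrous 3 (0.103), and the C03 call without hairy 3 (0.104) or glabrous 3 (0.0709).

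Of 16 tested copies of other transporters 1 was higher and 0 lower, with 5 and 0 at an unadjusted p under 0.05. It was SULTR2;2 on A07 (BnaA07g049900.4DH), next by identifier to the SULTR1;2 copy BnaA07g049910.4DH, at 4.24 and 3.98 TPM in the hairy and 0.62 and 0.48 TPM in the glabrous leaves (1.73, adjusted p = 0.0243). That call was lost without hairy 1, hairy 3 or glabrous 3 (adjusted p = 0.158, 0.112 and 0.0754) and in the fit blocked on replicate number (0.0847), and the SULTR2;2 sum was not called (1.22, adjusted p = 0.455). The 31 tested copies of cysteine and glutathione synthesis had 1 higher and 0 lower, with 2 and 0 at an unadjusted p under 0.05; that copy was SERAT2;1 on A06 (BnaA06g000160.4DH), at 4.15 and 3.30 against 0.13 and 0.29 TPM (adjusted p = 0.0092; 0.0595 without hairy 1), with a sum at 0.94 (adjusted p = 0.765).

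Some of the genes in the list of the sulfur starvation response in Arabidopsis were barely detected, while others were clearly present. Those matched to LSU1, LSU2 and LSU3 came together to at most 0.37 TPM in any leaf, and BGLU28 was listed at 0 in all. In contrast, MSA1 summed to 6.98 and 4.19 TPM in hairy 1 and 3 and to 3.797 and 10.3 TPM in glabrous 1 and 3. In the same order GGCT2;1 summed to 0.603, 2.91, 4.82 and 1.87 TPM, and SDI2 to 23.3, 28.9, 53.8 and 63.5 TPM. The sulfur status of the leaves was not tested. Of 12 tested copies of this list 0 were higher and 3 lower, with the same numbers at an unadjusted p under 0.05. They were a pair of C06 copies of SLIM1, a regulator of the sulfur response, and a copy of SDI2. The SLIM1 copies read 0.14 and 0 against 3.77 and 6.55 TPM (BnaC06g047270.4DH, -2.49, adjusted p = 0.00287; 0.0667 without hairy 3) and were listed at 0 in the hairy leaves against 2.58 and 2.70 TPM (BnaC06g063140.4DH, adjusted p = 0.00762; 0.108 and 0.0902 without hairy 1 or 3), and the SLIM1 sum differed by -0.12. The third was the C05 copy of SDI2 (BnaC05g003130.4DH), a relative of SDI1, at 6.25 and 8.27 TPM in the hairy and 24.7 and 26.1 TPM in the glabrous leaves (-1.69, adjusted p = 0.018). This call was lost without any of the 4 leaves in turn (adjusted p = 0.0532 to 0.176) and in the fit blocked on replicate number (0.0974), and the SDI2 sum was not called (-1.14, adjusted p = 0.263). SDI1 and SDI2 thus had line differences of opposite sign, neither called as a sum.

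Where PAPS is used, 2 of 16 tested copies were called higher and 3 lower, with 4 and 3 at an unadjusted p under 0.05. Regulators of glucosinolate synthesis had 2 of 11 tested copies higher and 0 lower, with 4 and 0 at an unadjusted p under 0.05. The C06 copy of SOT16 (BnaC06g063540.4DH) was lower, at 0.39 and 0.12 against 19.4 and 38.7 TPM (-4.51, adjusted p = 0.000142). A C06 and a C09 copy of SOT18 (BnaC06g063470.4DH and BnaC09g026760.4DH), listed at 0 in the hairy leaves, read 1.95 and 25.9 TPM and 1.25 and 4.52 TPM in the glabrous ones (adjusted p = 0.0484 and 0.0272), calls lost without hairy 1 (0.159 and 0.157) or hairy 3 (0.162 and 0.15), with a pseudocount of 5 TPM (0.218 and 0.0702), with no filter on low values (0.0863 and 0.0649) or without the variance trend (0.0574 and 0.0598), and for C09 also without glabrous 3 (0.0783). The higher copies, named after their values were seen, were SOT16 on A07 (BnaA07g046650.4DH), at 98.4 and 79.1 against 17.3 and 45.1 TPM (1.62, adjusted p = 0.0416), and SOT17 on C05 (BnaC05g019120.4DH), at 62.4 and 51.6 against 10.98 and 29.3 TPM (1.60, adjusted p = 0.0429). They lost the call in 7 and 6 of 13 other settings, among them without hairy 1 (0.259 and 0.241), hairy 3 (0.16 and 0.164) or glabrous 1 (0.157 and 0.189). The SOT17 sum differed by 1.74 (unadjusted p = 0.00409, adjusted p = 0.127). The regulators were the C08 copy of MYB51 (BnaC08g042180.4DH), at 11.1 and 13.98 against 0.49 and 1.34 TPM (2.85, adjusted p = 0.0023), and the A03 copy of MYB34 (BnaA03g047540.4DH), at 106 and 59.9 against 16.9 and 21.6 TPM (2.01, adjusted p = 0.00532; 0.115 without hairy 1). The MYB51 sum, at 16.4 and 19.7 against 0.65 and 3.33 TPM, was called too (2.83, adjusted p = 0.0173), but not without hairy 1 (0.0886), without hairy 3 (0.126), with no filter on low values (0.0686) or in the fit blocked on replicate number (0.0612). MYB28, a regulator of aliphatic glucosinolates named after its values were seen, read 26.3 TPM in glabrous 1 and 109 TPM in glabrous 3. It read 96.4 and 57.3 TPM in hairy 1 and 3. Like the APK1 and APK2 sums it was higher in glabrous 3 than in glabrous 1, as were 75.3% of all sums tested. Unlike them it was lower in hairy 3 than in hairy 1.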

How the data were processed

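Transcripts of single Brassica napus leaves were quantified by poly-A RNA sequencing; libraries had inserts of 300 ± 50 bp per the labels. The submitters' processing notes name cutadapt 1.9. Neither labels nor headers name the aligner, the build or the gene models. Per transcript model and leaf, the authors deposited TPM, the mean TPM per line, the larger of the group means (a signal on the TPM scale), a signed fold change score, a log2 fold change, and a p-value, raw and adjusted, from a test that is not stated. TPM carry no counts, so depth is unknown and precision rests on the spread between leaves, which may be technical.

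TPM were summed per gene and per Arabidopsis match. Those reaching 1 TPM in 2 or more leaves entered limma 3.58.1 (R 4.3.3) as log2(TPM + 1), with trended, robust variance moderation and p-values adjusted over all genes (Benjamini-Hochberg); fold changes near 0 TPM are understated. Intervals are 95% and cover leaf spread. On simulated data, 34 of 67 copies and 53 of 67 sums changed by 2 on the log2 scale were called, and 66 of 66 changed by 4. Fewer copies and sums were changed there than were called in the data, so these rates need not hold for the data. Copies with a mean of at least 5 TPM, or called, were named, and of other lists called sums and at most 3 called copies. Outside this rule, some copies of SULTR2;1, APR3, APK2 and SDI1 were also given by identifier, with their values known. The genes and lists were chosen with earlier results of these data known. Sums and tables were made with numpy 2.4.6 and pandas 2.3.3 under Python 3.11.15. The alternatives left out each leaf, blocked on replicate number, or took other pseudocounts, filters, scalings and variance priors. No sequence is shown, as none was used.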

Additional observations from a re-analysis of the deposited data

How the results depend on the processing

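Of the genes described, the sums over copies gave 0 higher in every setting and 0 lower in all but 1, and the copies gave 0 calls in all but 3. Leaving out 1 leaf in turn gave 0 to 2 copies and 0 to 1 sums lower; the cause was not tested. TMM scaling gave 1 copy higher. The deviations of same-numbered leaves from the mean of their line correlated at -0.41 across genes. Whether any of the leaves shared a batch was not tested. The replicate number as a block changed no call of these genes. A crossed pairing (hairy 1 with glabrous 3), added after seeing the data, gave 3 copies higher and 1 lower. The labels do not give this pairing, and it took the median SE over all copies from 0.46 to 0.30. Calls made only with it are therefore not support for a line difference.

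Over all genes, leaving out a leaf gave 1314 to 2740 higher and 977 to 2367 lower copies and 116 to 596 higher and 17 to 224 lower sums, where the full data gave 283 and 38 sums. The replicate block gave 143 and 23 sums, and the crossed pairing 3921 and 3039 copies and 843 and 281 sums. The filter at 5 TPM gave 1251 lower copies, fewer genes being tested; with no filter 168 sums were higher, and with TMM scaling 58 lower. For the 6 other sulfur lists, leaving out a leaf gave 4 to 19 higher and 2 to 10 lower copies and 1 to 5 higher sums. The filter at 5 TPM left 4 lower copies, the block and no filter 1 higher sum each, and the crossed pairing 15 higher copies, 6 higher sums and 1 lower sum.

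Some signs turned, none in a difference called with all 4 leaves; of these only SULTR2;1 (A02 copy and sum) was called in another setting, without glabrous 1. With leaves left out, log2 differences ran from -2.83 to 0.51 for SULTR2;1 on A02, -0.29 to 0.52 for ATPS1 on A05 and -1.35 to 0.13 on C03, -0.19 to 0.19 for APR1 on C09, -1.27 to 0.75 for APK1 on A03, -1.07 to 0.86 on C03 and -0.49 to 0.58 on C09, and -1.195 to 1.01 for APK2 on A03 and -0.86 to 1.01 on C07. For sums they ran from -2.67 to 0.55 for SULTR2;1, -0.70 to 0.32 for ATPS1, -0.95 to 0.46 for APK1 and -1.31 to 1.201 for APK2. APR1 on C09 also read -7.89e-05 with a pseudocount of 5 TPM, -0.0215 with TMM and -0.0504 with quantile scaling; APK1 on C09 read -0.10 with quantile scaling; APK2 on C07 read -0.0193 with a pseudocount of 5 TPM and -0.00683 with quantile scaling. The signs of the APR2, APR3 and SDI1 sums held in all 13 settings.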
